A study of Homo sapiens with 15 samples.

Results

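The 31 genes described here encode enzymes that make cholesterol and fatty acids and the proteins that regulate them. They were the rows of the count table that carry the symbols of a list drawn up by function, 31 of 60675 genes. Of these, 6 act in the mevalonate and isoprenoid steps, 11 in the squalene and sterol steps, 6 in regulation and sterol transfer, and 8 in fatty acid synthesis. RNA was sequenced from HT1080 cells, a human fibrosarcoma line, in 15 libraries, with 3 in each of 5 groups. 6CD1m cells (KDAC6 H216A) and 6CD2m cells (KDAC6 H611A) carry a missense mutation in the first or second catalytic domain of endogenous KDAC6, and both were treated with 1 μm Tubastatin A, a KDAC6 inhibitor, for 2 days. 8CDm cells (KDAC8 H143A) carry one in endogenous KDAC8 and were treated with 5 μm PCI-34051, a KDAC8 inhibitor, for 2 days. WT cells, with neither enzyme mutated, received Tubastatin A or PCI-34051 at the same dose for 14 days. Every library therefore came from cells on an inhibitor, and untreated cells were not analysed here. Each mutation is represented by 1 cell line and leaves the enzyme expressed, so a gene's reads do not check a line's label. Where a mutant line was compared with WT cells, genotype cannot be told apart from the length of treatment. Between the inhibitors in WT cells, the compound and its dose changed together. In bulk RNA, fewer cells of a kind and less RNA per cell cannot be told apart.

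Cells make cholesterol from acetyl-CoA through mevalonate, isoprenoid diphosphates, squalene and lanosterol, and make fatty acids from the same acetyl-CoA through malonyl-CoA. The transcription factors SREBF1 and SREBF2 activate the genes of both pathways. They are held in the endoplasmic reticulum with their escort SCAP by INSIG1 and INSIG2 while sterols are plentiful, and are cut and released to the nucleus when sterols run low. Cultured cells also take up cholesterol and fatty acids from serum, which these cells were given.

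The libraries held 10932437 to 19983699 counts (median 17551869), and all 31 genes passed the filter on low counts that left 19535 genes to test. The lowest count of any member was 37, for SC5D in 1 library of 6CD1m cells. In 6CD1m cells and both WT groups, replicate 1 stood apart from the other replicates. The chi-square per gene was 14.9 to 41.1 for pairs with that library and 4.45 to 6.59 for the pairs without it. Counts are therefore given with and without these 3 libraries, a choice made after the data were seen. Their deviations from the group mean correlated with GC content (Spearman 0.588 in 6CD1m, -0.567 in WT on PCI-34051 and -0.544 in WT on Tubastatin A). Replicate 3 of 6CD1m and of WT on Tubastatin A gave -0.591 and 0.552, and these libraries were kept. The mesenchymal markers, VIM, CD44, FN1, SPARC, S100A6 and TIMP1, were counted in all 15 libraries. Their summed CPM, the count scaled for library size, was 5653 to 7765 in 6CD1m, 4753 to 5392 in 6CD2m, 7896 to 8420 in 8CDm, 6730 to 9299 in WT on PCI-34051 and 7535 to 8444 in WT on Tubastatin A. The 7 markers of other cell types (ALB, CDH1, CDH5, EPCAM, KRT19, PECAM1, PTPRC) summed to 0.627 to 1.35 CPM, 1.72 to 1.84 CPM, 2.44 to 2.96 CPM, 0.747 to 1.90 CPM and 0.276 to 1.17 CPM in the same groups. ALB had no count in any library.

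The 31 genes were most often highest in WT cells on Tubastatin A. In that group 22 of 31 had their highest mean CPM, beside 16.3% of all genes tested. None had its highest mean in 6CD1m cells, 3 in 6CD2m, 2 in 8CDm and 4 in WT cells on PCI-34051. The shares of all genes in these groups were 21.2%, 23%, 21.1% and 18.4%. The lowest mean was in 6CD2m cells for 11 members and in 6CD1m cells for 9, beside 24.9% and 18.9% of all genes. The count of 22 was 20 to 23 when any 1 library was left out, 20 without the 3 libraries that stood apart, 19 with upper-quartile scaling and 23 after offsets for GC content. The ratio of the highest to the lowest group mean was widest for INSIG1, at 5.09, followed by MVD at 3.00 and SC5D at 2.86, and narrowest for SCAP, at 1.14. Per length, as CPM per kilobase of exon, the group means were highest for ACLY (81.9 to 111), SCD (49.5 to 95.2) and FASN (55.9 to 78.5), which make cytosolic acetyl-CoA, monounsaturated fatty acids and palmitate. They were lowest for the sterol enzymes HSD17B7 (0.636 to 1.28) and SC5D (0.940 to 2.69).

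**Figure D1:**
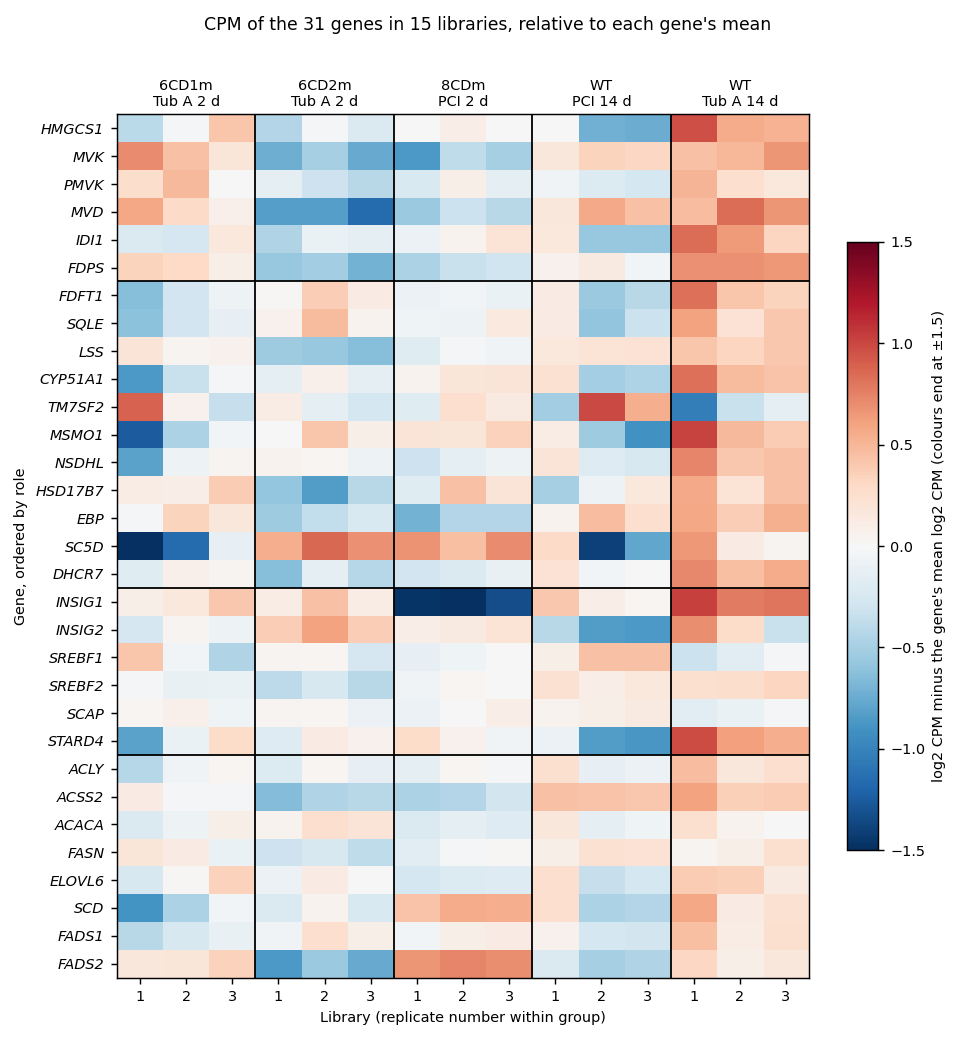
Heat map of the 31 genes (rows, ordered by role) in 15 libraries (columns, by group and replicate number). Colour gives log2 CPM minus the gene's mean over the libraries, red above and blue below, and the WT columns on Tubastatin A are red for most genes, while INSIG1 is blue in all 3 8CDm columns.

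Promoter sequences help to show what the members share beyond function. RefSeq promoters on GRCh38.p14, 250 bases before to 50 after the start, were matched by symbol for 28 of the 31 members. FDFT1, SQLE and FASN were not matched. The letters CCAAT, read by the factor NF-Y, which works beside SREBF2 at sterol genes, stood on either strand in the promoters of 21 of 28 members (75.0%) and of 39.7% of 27305 genes. At least 2 such matches were held by 14 members, and by 12.9% of all genes. CYP51A1, ELOVL6, FADS1, INSIG2, PMVK, SCAP and SREBF1 had none. The sterol regulatory element TCACNCCAC was found in 1 member, SREBF2, and in 1.39% of all genes. Its shorter form CACNCCAC, which overlaps it and was chosen after the data were seen, was in 6 members (21.4%) and 7.05% of all genes. The E-box CACGTG was in 4 members (14.3%) and 8.775% of all genes. A match describes letters and not a bound site.

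The stretches below lie before the start in the promoters of members that fell in 6CD2m cells relative to WT cells on Tubastatin A, and of INSIG1, which fell in 8CDm cells. They are written 5′ to 3′ on the gene's strand with CCAAT, its reverse ATTGG and TCACNCCAC in capitals, and show 100 bases free of annotated exons or, where no such stretch held a match, 30 bases. They lie at chr12:109573695-109573724 (MVK, plus strand), chr16:88663167-88663266 (MVD, minus), chr1:155308632-155308731 (FDPS, plus), chr21:46228872-46228971 (LSS, minus), chrX:48521726-48521755 (EBP, plus), chr11:71448436-71448535 (DHCR7, minus), chr22:41832962-41832991 (SREBF2, plus), chr20:34874807-34874906 (ACSS2, plus) and chr7:155297652-155297751 (INSIG1, plus).
MVK: attgaCCAATgttcaagcctATTGGtaaag
MVD: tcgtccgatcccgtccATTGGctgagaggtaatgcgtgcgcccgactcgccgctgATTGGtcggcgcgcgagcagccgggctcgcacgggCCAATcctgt
FDPS: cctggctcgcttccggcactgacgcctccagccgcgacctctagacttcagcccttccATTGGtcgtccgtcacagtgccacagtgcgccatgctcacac
LSS: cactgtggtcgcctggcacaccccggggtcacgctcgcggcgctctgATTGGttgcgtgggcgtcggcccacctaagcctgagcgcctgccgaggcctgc
EBP: aagagagtgtctATTGGttgggagcggcac
DHCR7: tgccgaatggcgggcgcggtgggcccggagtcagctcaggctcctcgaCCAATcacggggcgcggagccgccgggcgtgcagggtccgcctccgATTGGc
SREBF2: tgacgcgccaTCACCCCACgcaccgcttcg
ACSS2: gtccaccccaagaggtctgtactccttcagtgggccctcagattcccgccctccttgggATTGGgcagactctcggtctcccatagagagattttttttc
INSIG1: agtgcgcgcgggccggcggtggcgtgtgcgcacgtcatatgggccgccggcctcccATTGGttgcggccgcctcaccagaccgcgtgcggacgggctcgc
MVK holds 5 CCAAT matches over its whole promoter entry and EBP holds 3. SREBF2 holds 1 outside the stretch shown, and FADS2 holds 1 after the start.

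Cholesterol synthesis genes were lower in 6CD2m cells treated with Tubastatin A for 2 days than in WT cells treated for 14 days. At an adjusted p under 0.001 (edgeR quasi-likelihood, Benjamini-Hochberg over all genes tested), 9 of 31 members were lower and 0 higher, beside 11.8% of all genes called. At an adjusted p under 0.05, 19 were lower and 0 higher, beside 32.8% of all genes. The median log2 fold change was -0.61 over the members and -0.01 over all genes tested. In 21 members every 6CD2m library lay below every WT library, as did 26.4% of all genes, and in the other 10 the libraries overlapped. Without the 3 libraries that stood apart, 15 members were lower, beside 4494 of 19878 genes called. After GC offsets 14 were lower, beside 3079 of 19381 genes called. Over all genes, 900 were called higher and 1410 lower, against 1211 and 1228 with upper-quartile scaling, under which the same count of 9 members was lower.

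Of the 6 mevalonate and isoprenoid members, MVD, FDPS and MVK were called. MVD, which turns mevalonate diphosphate into isopentenyl diphosphate, stood at 7.76, 7.75 and 6.17 CPM in 6CD2m cells and 18.9, 24.4 and 21.7 CPM in WT cells, a log2 fold change of -1.58 (SE 0.16, edgeR adjusted p = 2.6e-06). FDPS, which makes farnesyl diphosphate, stood at 48.1, 49.7 and 43.4 CPM against 114, 114 and 111 CPM, a log2 fold change of -1.27 (SE 0.09, edgeR adjusted p = 8.8e-08). MVK, which phosphorylates mevalonate, stood at 7.99, 9.37 and 7.84 CPM against 18.1, 18.7 and 21.1 CPM, a log2 fold change of -1.20 (SE 0.15, edgeR adjusted p = 2.6e-05). None of these 3 genes overlapped between the groups, and each was called in all 6 fits that left out 1 library. FDPS has near-identical copies in the genome and held fractional counts in all 15 libraries, so its reads may be shared with them. All 6 members of the mevalonate and isoprenoid steps had an adjusted p under 0.05, with a median log2 fold change of -1.06. HMGCS1, which makes the HMG-CoA that feeds mevalonate, was at 20.7, 27.7 and 24.2 CPM in 6CD2m cells and 55.2, 41.6 and 40.6 CPM in WT cells (log2 fold change -0.92, SE 0.21, edgeR adjusted p = 0.0038). PMVK and IDI1, which act before and after MVD, had log2 fold changes of -0.61 and -0.83.

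Among the 11 squalene and sterol members, LSS, DHCR7 and EBP fell. LSS, which folds squalene epoxide into lanosterol, stood at 43.8, 42.6 and 40.7 CPM against 84.4, 79.4 and 83.5 CPM in WT cells, a log2 fold change of -0.96 (SE 0.08, edgeR adjusted p = 3.4e-07). DHCR7, a sterol reductase near the end of the pathway, was at 29.8, 41.9 and 34.5 CPM against 76.3, 63.7 and 68.2 CPM (log2 fold change -0.97, SE 0.13, edgeR adjusted p = 3e-05). EBP, a sterol isomerase, was at 13.3, 14.9 and 16.4 CPM against 28.7, 24.8 and 27.9 CPM (log2 fold change -0.87, SE 0.14, edgeR adjusted p = 0.00017). LSS and DHCR7 kept the call whichever library was left out, whereas EBP kept it in 2 of 6 such fits and missed it without 6CD2m replicate 1 or 2 or WT replicate 1 or 3. SQLE, which makes squalene epoxide and is a rate-limiting enzyme, did not separate the groups, at 32.6, 43.5 and 32.3 CPM against 47.4, 36.3 and 41.3 CPM (log2 fold change -0.21, SE 0.18, edgeR adjusted p = 0.41). HSD17B7, a sterol ketoreductase, had a log2 fold change of -1.01 (SE 0.22, edgeR adjusted p = 0.0022) and held fractional counts in 14 libraries. CYP51A1, the lanosterol demethylase, gave -0.64, NSDHL -0.53, MSMO1 -0.47 and FDFT1, the squalene synthase, -0.37, with edgeR adjusted p = 0.024, 0.035, 0.2 and 0.13. The exons of CYP51A1 overlap those of AC000120.2 on the same strand, so its reads are uncertain. TM7SF2 and SC5D had log2 fold changes of 0.37 and 0.40, neither past the threshold.

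Of the 6 regulators, SREBF2 fell, at 186, 207 and 183 CPM in 6CD2m cells and 289, 293 and 307 CPM in WT cells, a log2 fold change of -0.63 (SE 0.08, edgeR adjusted p = 1.6e-05). SREBF1, the factor more closely tied to fatty acid genes, was at 66.2, 65.6 and 54.2 CPM against 51.2, 57.3 and 63.1 CPM, with overlapping libraries and a log2 fold change of 0.12 (SE 0.17, edgeR adjusted p = 0.65). INSIG1 was at 33.3, 41.9 and 33.5 CPM against 62.7, 53.2 and 53.8 CPM (log2 fold change -0.64, SE 0.13, edgeR adjusted p = 0.0017), below WT in every library but short of the threshold. SREBF2 held fractional counts in all 15 libraries, so part of its reads was assigned by estimate. STARD4 gave -0.72 (edgeR adjusted p = 0.029), and INSIG2 and SCAP gave 0.18 and 0.09.

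Of the 8 fatty acid members, 2 fell. ACSS2, which makes acetyl-CoA from acetate, stood at 37.6, 43.2 and 44.3 CPM in 6CD2m cells and 89.3, 75.9 and 76.8 CPM in WT cells, a log2 fold change of -0.95 (SE 0.10, edgeR adjusted p = 2.6e-06). FADS2, the first desaturase of polyunsaturated fatty acids, stood at 25.0, 30.9 and 27.0 CPM against 56.3, 48.3 and 51.2 CPM, a log2 fold change of -0.91 (SE 0.11, edgeR adjusted p = 9.8e-06). FASN, the fatty acid synthase, was at 525, 548 and 497 CPM against 667, 689 and 765 CPM (log2 fold change -0.43, SE 0.09, edgeR adjusted p = 0.0024). SCD, a stearoyl-CoA desaturase, was at 308, 370 and 306 CPM against 534, 388 and 419 CPM (log2 fold change -0.45, SE 0.21, edgeR adjusted p = 0.12). FASN and SCD were lower in every 6CD2m library without passing the threshold. ACLY, ELOVL6, FADS1 and ACACA, the last being the carboxylase that makes malonyl-CoA, gave -0.40, -0.28, -0.17 and 0.07. FADS2 reads cannot be told from those of FADS1 where the exons of the 2 genes overlap, unless strand was used. FADS2 held fractional counts in 0 of 15 libraries and FADS1 in 13. All 9 members called in this comparison had a CCAAT match in the promoter window, beside 21 of the 28 members with a promoter entry. So did all 6 called for 6CD1m relative to 6CD2m, all 6 for 8CDm relative to WT and all 3 for the difference of these changes. A link between the match and the changes was not tested. For 6CD2m relative to WT, the median log2 fold change was -0.83 over the 21 members with a match and -0.17 over the 7 without. In the other comparisons these medians were 0.28 and 0.02 for 6CD1m relative to 6CD2m, 0.52 and 0.43 for Tubastatin A relative to PCI-34051 in WT cells, -0.43 and -0.23 for 6CD1m relative to WT, -0.17 and 0.08 for 8CDm relative to WT, and -0.68 and -0.38 for the difference between the 6CD2m and 8CDm changes.

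**Figure D2:**
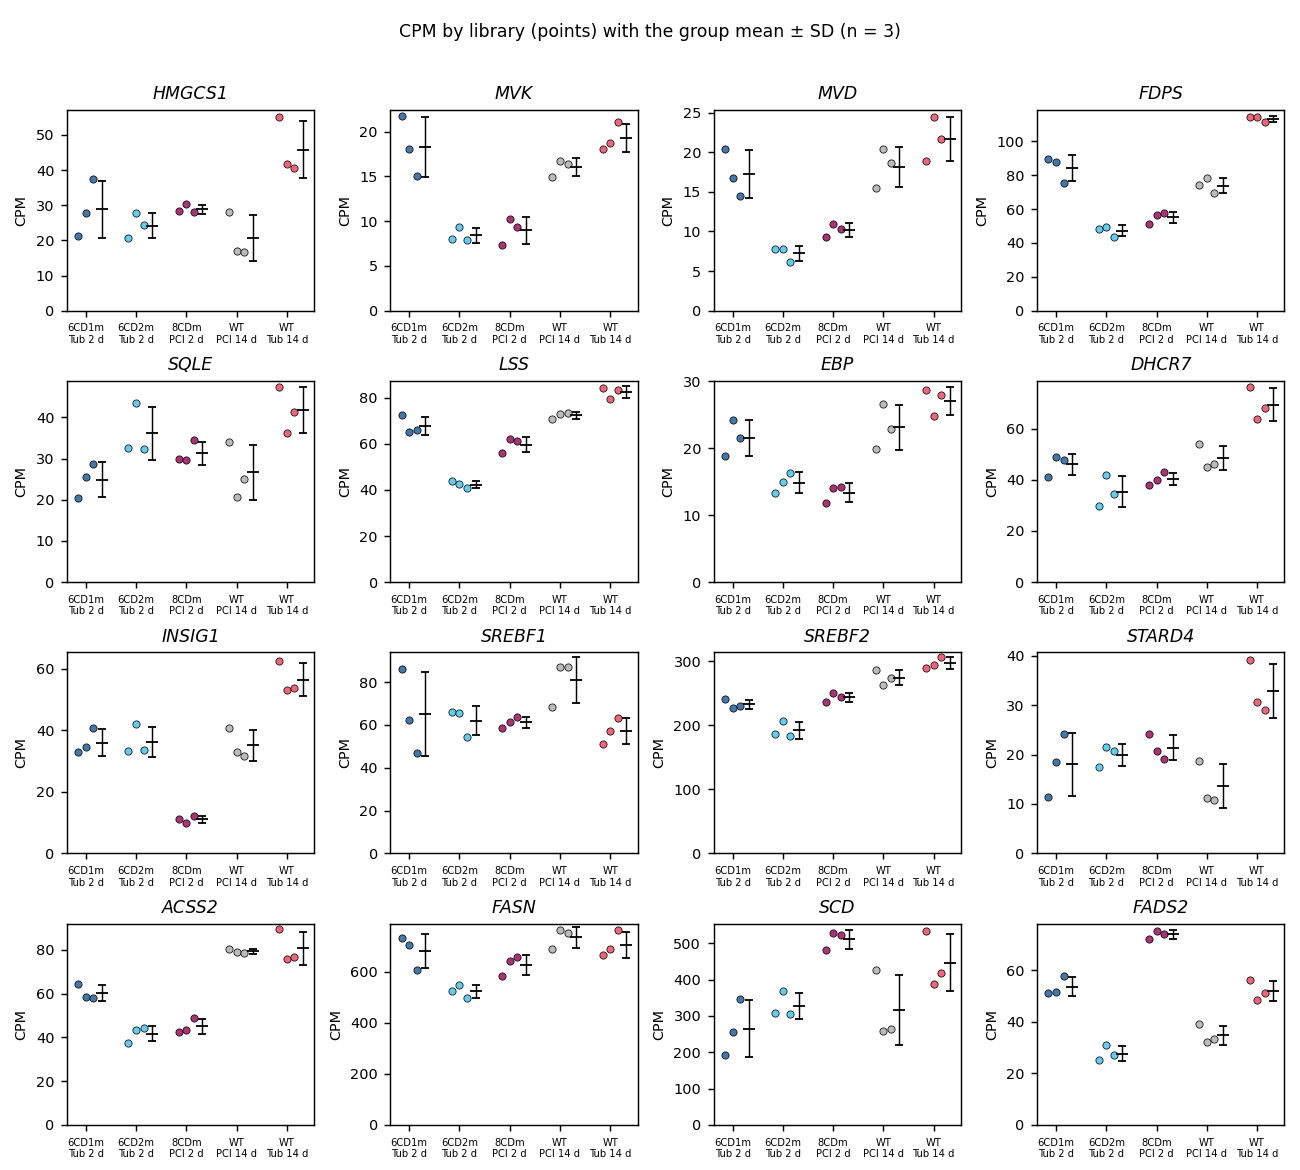
CPM of 16 members in each library (points, 3 per group) with the group mean and SD beside them, on linear axes that start at 0. FDPS is at 111 to 114 CPM in WT cells on Tubastatin A and below 90 CPM elsewhere, and INSIG1 is at 9.91 to 12.2 CPM in 8CDm cells and at 31.6 CPM or more elsewhere.

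Of the 6 mesenchymal markers 4 were also lower in 6CD2m cells than in these WT cells (FN1 -1.51, S100A6 -1.23, VIM -0.65 and TIMP1 -0.62 on the log2 scale, each with an edgeR adjusted p under 0.001), while CD44 gave -0.44 and SPARC 0.45 and were not called. The epithelial keratin KRT19 had no count in 6CD2m cells and 0 to 0.389 CPM in WT cells. The endothelial marker CDH5 was higher, at 1.39 to 1.66 CPM against 0.166 to 0.194 CPM. The part of these markers in the result was not tested. Around the pathway, ACAT2, which makes acetoacetyl-CoA, fell with a log2 fold change of -1.55 (SE 0.20, edgeR adjusted p = 2.6e-05), as 1 of 6 genes of isoprenoid branches. Of 17 fatty acid and glycerolipid genes tested, 3 fell and 0 rose, with SCD5, a second stearoyl-CoA desaturase, at -1.14 (SE 0.14) and the mitochondrial citrate carrier SLC25A1 at -0.91 (SE 0.09) the largest. SLC25A1 lost the call with GC offsets. Of 8 fatty acid oxidation genes, CPT1A, which loads fatty acids onto carnitine for mitochondria, and the receptor PPARA fell, each by 0.95 (SE 0.13). Of 10 genes of sterol transport, storage and LXR signalling, ABCG1 rose, from 0 to 0.0648 CPM in WT cells to between 0.612 and 1.32 CPM in 6CD2m cells, a low level in both. ABCG1 lost the call without 6CD2m replicate 1 or 2 or WT replicate 1 or 3. None of the 3 SREBP processing genes, MBTPS1, MBTPS2 and SPRING1, passed the threshold.

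The KDAC6 domain mutants were compared on the same inhibitor, dose and duration. The 6CD2m libraries are those of the comparison with WT cells above, so the calls of both comparisons are not independent. In 6CD1m relative to 6CD2m cells 6 of 31 members were higher and 0 lower at an adjusted p under 0.001, beside 13.2% of all genes called. At an adjusted p under 0.05, 12 were higher and 5 lower, beside 40.3% of all genes, and 17 members did not overlap between the groups, beside 51.7%. The median log2 fold change was 0.07 over the members and 0.05 over all genes. With only the 6 libraries of these groups in the fit, FADS2 alone of the members was called, beside 1088 of 17925 genes. Without the 3 libraries that stood apart, 8 members were called, beside 4446 of 19878 genes.

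MVD was at 20.5, 16.8 and 14.4 CPM in 6CD1m cells, all above the 6CD2m libraries, a log2 fold change of 1.25 (SE 0.16, edgeR adjusted p = 3.1e-05). MVK was at 21.7, 18.0 and 15.1 CPM, a log2 fold change of 1.12 (SE 0.16, edgeR adjusted p = 5.9e-05). FADS2 was at 51.3, 51.5 and 57.7 CPM, a log2 fold change of 0.95 (SE 0.11, edgeR adjusted p = 7.3e-06). These 3 genes held the call in each fit that left out 1 library, and so did FDPS and LSS. FDPS was at 89.8, 87.8 and 75.6 CPM (log2 fold change 0.84, SE 0.09, edgeR adjusted p = 6.1e-06). LSS was at 72.4, 65.1 and 66.2 CPM (log2 fold change 0.68, SE 0.08, edgeR adjusted p = 1.1e-05). ACSS2, at 64.2, 58.2 and 57.8 CPM, had a log2 fold change of 0.53 (SE 0.10, edgeR adjusted p = 0.00061) and missed the threshold when any 1 of the 6 libraries was left out.

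The genes followed in every comparison gave smaller values, in both directions. SC5D, a late sterol desaturase of low level, had the largest difference of the members short of the threshold, -1.504 (edgeR adjusted p = 0.0049). HMGCS1 was at 21.4, 27.9 and 37.5 CPM in 6CD1m cells, a log2 fold change of 0.26 (SE 0.22, edgeR adjusted p = 0.36). SQLE was at 20.4, 25.6 and 28.7 CPM, below each 6CD2m library, a log2 fold change of -0.54 (SE 0.18, edgeR adjusted p = 0.029). INSIG1, at 32.8, 34.5 and 40.9 CPM, gave a log2 fold change of -0.01 (SE 0.14, edgeR adjusted p = 0.97). SREBF1 and SREBF2 are the transcription factors of both pathways. SREBF1 was at 86.0, 62.5 and 46.9 CPM (log2 fold change 0.07, SE 0.17, edgeR adjusted p = 0.77). SREBF2, at 241, 227 and 230 CPM, had a log2 fold change of 0.28 (SE 0.08, edgeR adjusted p = 0.01). The abundant enzymes FASN and SCD were not called. FASN was at 734, 705 and 605 CPM (log2 fold change 0.38, SE 0.09, edgeR adjusted p = 0.0051). SCD was at 192, 256 and 348 CPM (log2 fold change -0.31, SE 0.21, edgeR adjusted p = 0.26). Among the neighbouring lists, the lipase LIPA was lower in 6CD1m cells by 1.27 (SE 0.22) as 1 of 10 transport genes, 3 of 17 glycerolipid genes were higher, led by LPIN1 at 1.07 (SE 0.08) and SCD5 at 0.92 (SE 0.14), and ACADVL was higher by 0.61 (SE 0.10) as 1 of 8 oxidation genes. LIPA, SCD5 and ACADVL each kept the call in 2 of 6 fits without 1 library, and LIPA and ACADVL lost it with the replicate number as a block. None of the isoprenoid branch or SREBP processing genes was called. Of the mesenchymal markers FN1 and S100A6 were higher in 6CD1m cells (1.505 and 1.10 on the log2 scale), while VIM, TIMP1, CD44 and SPARC gave 0.47, 0.22, -0.12 and -0.34 and were not called. The endothelial marker CDH5 was lower in 6CD1m cells, at 0.139 to 0.337 CPM against 1.39 to 1.66 CPM. KRT19 was at 0.211 to 0.842 CPM in 6CD1m cells and had no count in 6CD2m cells (edgeR adjusted p = 0.017). The part of these markers in the result was not tested.

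6CD1m cells had 0 members past an adjusted p of 0.001 relative to WT cells on Tubastatin A in edgeR's test, beside 0.793% of all genes. DESeq2 called 5 members, all lower, beside 616 of 19535 genes. At an unadjusted p under 0.05 edgeR gave 20 members, all lower, with no share over all genes computed. At an adjusted p under 0.05 it gave 16 lower and 0 higher, beside 9.40% of all genes. In 19 members every 6CD1m library lay below every WT library, as did 17.2% of all genes. The median log2 fold change was -0.43 over the members and -0.01 over all genes, and upper-quartile scaling moved the latter by 0.11. With GC offsets 2 members were lower, beside 282 of 19381 genes called. Without the 3 libraries that stood apart 1 was lower, beside 267 of 19878 genes.

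Of the 16 members with an adjusted p under 0.05, 7 belonged to the squalene and sterol steps, 4 to fatty acid synthesis, 3 to regulation and transfer and 2 to the mevalonate and isoprenoid steps. MSMO1, a sterol methyl oxidase, had the lowest, -1.15 (SE 0.28, edgeR adjusted p = 0.02), followed by SC5D at -1.10 (edgeR adjusted p = 0.07). SQLE had a log2 fold change of -0.74 (SE 0.18, edgeR adjusted p = 0.023). MVK gave -0.08 (SE 0.15, edgeR adjusted p = 0.72). MVD gave -0.33 (SE 0.15, edgeR adjusted p = 0.15). Whether the 2 domain mutants differed was tested directly in the comparison above. HMGCS1 gave -0.66 (SE 0.21, edgeR adjusted p = 0.062), INSIG1 -0.65 (SE 0.13, edgeR adjusted p = 0.0098) and SREBF2 -0.35 (SE 0.08, edgeR adjusted p = 0.013). SREBF1 gave 0.18 (SE 0.17), FASN -0.05 (SE 0.09) and SCD -0.75 (SE 0.21), with edgeR adjusted p = 0.46, 0.72 and 0.04. Of the neighbouring lists, 2 of 10 transport genes fell. These were NPC1, which exports cholesterol from lysosomes, by 1.04 (SE 0.14, edgeR adjusted p = 0.00028), and ABCA1, which exports it from the cell, by 0.98 (SE 0.12, edgeR adjusted p = 0.00021). NPC1 kept the call in 1 and ABCA1 in 2 of 6 fits without 1 library, and both lost it with the replicate number as a block. No gene of the other pathway lists and no mesenchymal marker was called.

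In WT cells treated for 14 days, most cholesterol synthesis genes had higher values on Tubastatin A than on PCI-34051. All 6 mevalonate and isoprenoid members and 10 of 11 squalene and sterol members had a log2 fold change above 0. The exception was TM7SF2, at -0.92, with means of 7.80 CPM on Tubastatin A and 14.7 CPM on PCI-34051 and overlapping libraries. No member passed an adjusted p of 0.001 in edgeR's test, beside 0.420% of all genes. DESeq2 called 8 members, all higher. At an unadjusted p under 0.05 edgeR gave 20 members higher and 3 lower, with no share over all genes computed. At an adjusted p under 0.05 it gave 13 higher and 0 lower, beside 9.48% of all genes. Every Tubastatin A library lay above every PCI-34051 library in 19 members, as in 13.8% of all genes. The median log2 fold change was 0.50 over the members and 0.01 over all genes. Without the 3 libraries that stood apart, 13 members were higher and 1 lower at an adjusted p under 0.001, beside 2050 of 19878 genes called. Without replicate 1 of the PCI-34051 group alone 1 member was called, beside 147 of 20189 genes. Over all genes 65 were called higher and 17 lower in edgeR's test, and 472 and 233 in DESeq2.

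STARD4, which carries sterols between membranes, was at 39.1, 30.5 and 29.1 CPM on Tubastatin A and 18.7, 11.1 and 10.9 CPM on PCI-34051, a log2 fold change of 1.27 (SE 0.24, edgeR adjusted p = 0.0058). It was singled out after its values were seen, as the member with the largest change. HMGCS1 was at 28.1, 17.1 and 16.8 CPM on PCI-34051, below each Tubastatin A library, a log2 fold change of 1.14 (SE 0.22, edgeR adjusted p = 0.0054). INSIG1 was at 40.9, 33.0 and 31.6 CPM on PCI-34051, a log2 fold change of 0.69 (SE 0.13, edgeR adjusted p = 0.0066). SQLE was at 34.0, 20.7 and 25.1 CPM (log2 fold change 0.65, SE 0.18, edgeR adjusted p = 0.037). In these 4 genes, replicate 1 was the highest library of each WT group. SREBF1 ran the other way, at 68.5, 86.9 and 87.2 CPM on PCI-34051, above each Tubastatin A library, with a log2 fold change of -0.50 (SE 0.17, edgeR adjusted p = 0.076). SREBF2 was at 286, 263 and 273 CPM (log2 fold change 0.12, SE 0.08, edgeR adjusted p = 0.32). FASN was at 689, 762 and 753 CPM (log2 fold change -0.06, SE 0.09, edgeR adjusted p = 0.71). SCD was at 427, 258 and 264 CPM (log2 fold change 0.50, SE 0.21, edgeR adjusted p = 0.13). The groups overlapped in FASN and SCD. None of the genes of the 5 neighbouring lists and none of the mesenchymal markers was called in edgeR's test.

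On PCI-34051, some members were lower and others higher in 8CDm cells after 2 days than in WT cells after 14 days. As a set, the members lay close to all genes in median change and in the share called at an adjusted p under 0.05. At an adjusted p under 0.001, 5 members were lower and 1 higher, beside 11.0% of all genes, and at an adjusted p under 0.05, 7 were lower and 5 higher, beside 36.1%. In 17 members the groups did not overlap, beside 48.1% of all genes. The median log2 fold change was -0.09 over the members and -0.04 over all genes. Without the 3 libraries that stood apart 7 were lower and 8 higher, beside 6128 of 19878 genes called. The count was 3 with GC offsets, beside 2201 of 19381 genes called, and 3 with only the 6 libraries compared, beside 829 of 17683. It was also 3 without any 1 of 8CDm replicates 1, 2 and 3 and WT replicates 2 and 3. All genes called in these last fits numbered 1119 to 1313.

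INSIG1, which retains SCAP and the SREBF proteins in the endoplasmic reticulum, was at 11.2, 9.91 and 12.2 CPM in 8CDm cells, a log2 fold change of -1.66 relative to WT cells on PCI-34051 (SE 0.14, edgeR adjusted p = 6.1e-07). The 8CDm libraries were the lowest 3 of the 15 for this gene. FADS2 was at 72.2, 75.4 and 74.0 CPM in 8CDm cells and 39.0, 32.1 and 33.2 CPM in WT cells, a log2 fold change of 1.09 (SE 0.11, edgeR adjusted p = 2.2e-06). ACSS2 was at 42.5, 43.5 and 48.9 CPM against 80.3, 79.1 and 78.3 CPM, a log2 fold change of -0.82 (SE 0.10, edgeR adjusted p = 1.5e-05). These 3 genes were called with each library left out and in each other alternative tried, including GC offsets. MVK, MVD and EBP were also called, and lost the call with GC offsets. MVK was at 7.29, 10.2 and 9.40 CPM against 14.9, 16.8 and 16.4 CPM (log2 fold change -0.84, SE 0.15, edgeR adjusted p = 0.0007, and 0.0029 with GC offsets). MVD was at 9.28, 11.0 and 10.3 CPM against 15.5, 20.4 and 18.6 CPM (log2 fold change -0.83, SE 0.16, edgeR adjusted p = 0.00088, and 0.0087 with GC offsets). EBP was at 11.8, 14.1 and 14.2 CPM against 19.9, 26.6 and 22.9 CPM (log2 fold change -0.79, SE 0.14, edgeR adjusted p = 0.00048, and 0.0038 with GC offsets).

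HMGCS1, SQLE, SREBF1, SREBF2, FASN and SCD were not called here. HMGCS1 was at 28.2, 30.3 and 28.1 CPM in 8CDm cells (log2 fold change 0.48, SE 0.22, edgeR adjusted p = 0.097). SQLE was at 29.8, 29.5 and 34.4 CPM (log2 fold change 0.23, SE 0.18, edgeR adjusted p = 0.34). SREBF1 was at 58.8, 61.4 and 63.8 CPM, below each WT library (log2 fold change -0.40, SE 0.17, edgeR adjusted p = 0.081). SREBF2 and FASN gave small differences with all 8CDm libraries below WT. SREBF2 was at 236, 251 and 244 CPM (log2 fold change -0.17, SE 0.08, edgeR adjusted p = 0.098). FASN was at 583, 641 and 659 CPM (log2 fold change -0.23, SE 0.09, edgeR adjusted p = 0.072). SCD was at 481, 528 and 523 CPM, above each WT library (log2 fold change 0.69, SE 0.21, edgeR adjusted p = 0.019). Of the neighbouring lists, NPC1 fell by 0.70 (SE 0.13, edgeR adjusted p = 0.00099) as 1 of 10 transport genes, and lost the call in 6 of 6 fits without 1 library. Of 17 glycerolipid genes, 2 fell, the malic enzyme ME1, a source of NADPH, by 1.40 (SE 0.24) and SLC25A1 by 0.75 (SE 0.09). ME1 lost the call without any 1 of the 3 8CDm libraries, and SLC25A1 with GC offsets. CPT1A fell by 1.11 (SE 0.13) as 1 of 8 oxidation genes. No isoprenoid branch or SREBP processing gene was called. Of the mesenchymal markers TIMP1 and S100A6 fell (-1.13 and -1.001 on the log2 scale), while FN1 gave 1.10 (edgeR adjusted p = 0.0011) and VIM, CD44 and SPARC gave -0.27, -0.21 and 0.13. CDH5 was at 2.11 to 2.85 CPM in 8CDm cells and had no count in WT cells on PCI-34051. KRT19 was at 0 to 0.171 CPM against 0.587 to 1.90 CPM (edgeR adjusted p = 0.009). The part of these markers in the results was not tested.

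**Figure D3:**
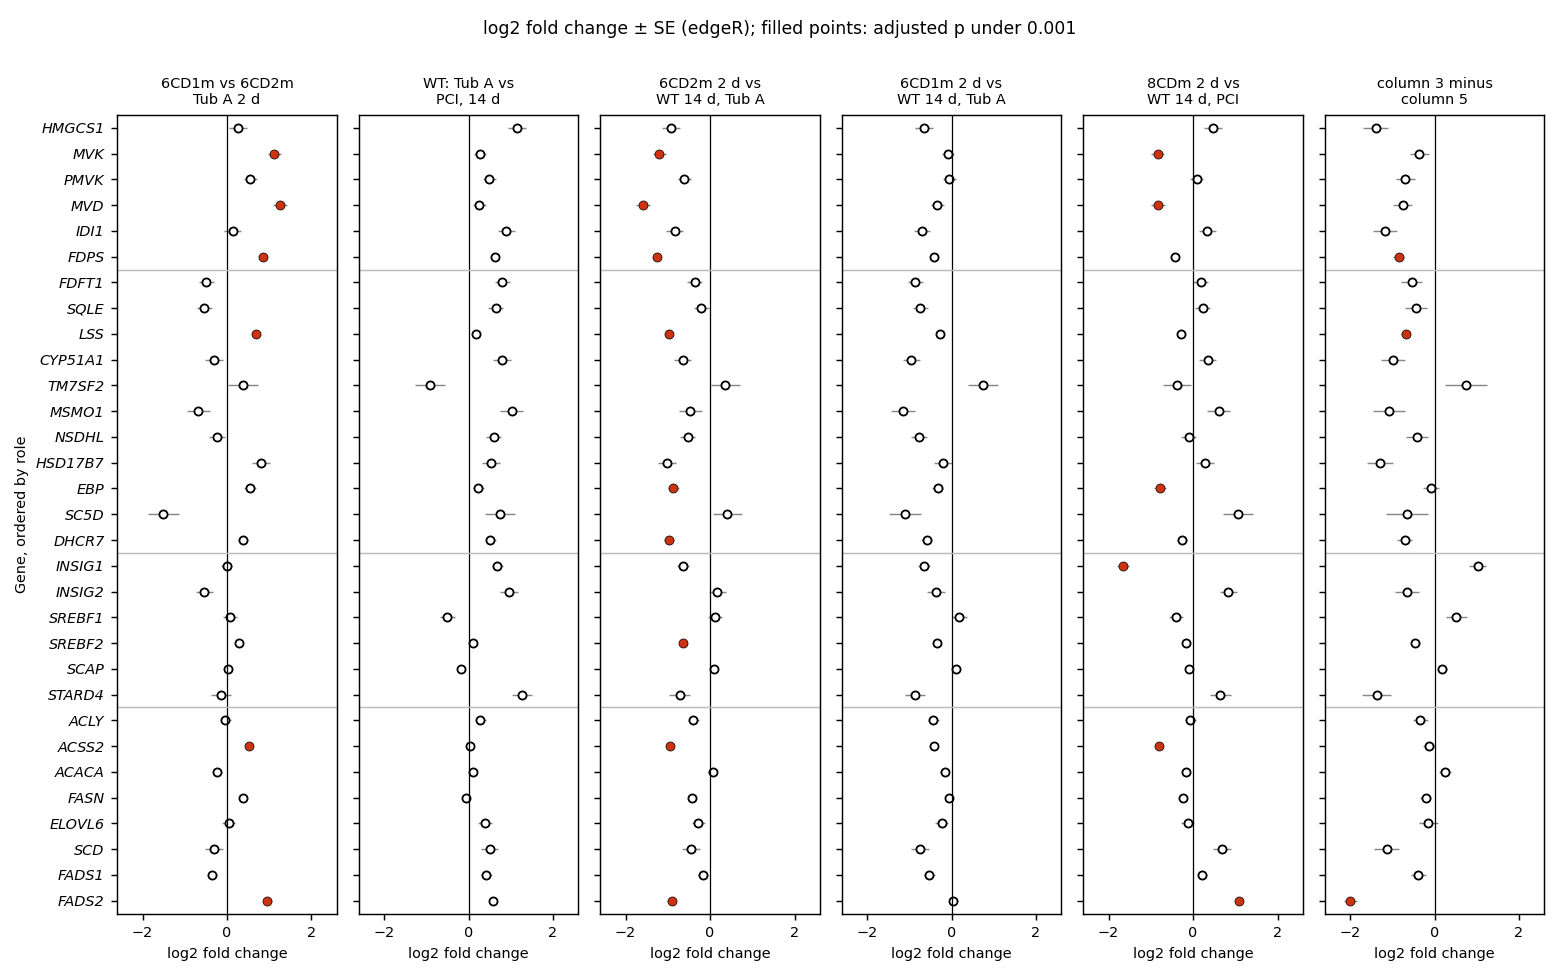
log2 fold change (horizontal axes, bars ± SE from edgeR) of the 31 members (rows) in the 5 comparisons and in the difference between the 6CD2m and 8CDm comparisons, with filled points at an adjusted p under 0.001. The filled points number 6, 0, 9, 0, 6 and 3 from left to right, and FADS2 lies below 0 in the third column and above 0 in the fifth.

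The change in 6CD2m cells relative to WT cells on Tubastatin A was set against the change in 8CDm cells relative to WT cells on PCI-34051 with an interaction term. The line, inhibitor and dose differ together between these changes. At an adjusted p under 0.001, 3 members had a lower change in 6CD2m cells and 0 a higher one, beside 5.16% of all genes, and at an adjusted p under 0.05 these were 13 and 1, beside 19.3%. The median difference was -0.54 over the members and 0.00 over all genes, and upper-quartile scaling moved the latter by 0.13. Without the 3 libraries that stood apart 12 members had a lower change and 1 a higher one, beside 2971 of 19878 genes called. The count was 1 when 6CD2m replicate 1 or 3, 8CDm replicate 2 or 3, replicate 3 of WT on PCI-34051 or replicate 1 or 2 of WT on Tubastatin A was left out. All genes called in these fits numbered 676 to 763. The count was 5 without replicate 1 of WT on PCI-34051, beside 1229 of 20189 genes called.

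FADS2 gave the largest difference, -2.00 on the log2 scale (SE 0.15, edgeR adjusted p = 2.3e-07), since it fell in 6CD2m cells and rose in 8CDm cells relative to their WT groups. It was called in each of the alternatives. FDPS differed by -0.85 (SE 0.13, edgeR adjusted p = 0.00026). LSS differed by -0.68 (SE 0.11, edgeR adjusted p = 0.00045). FDPS lost the call with upper-quartile scaling and kept it in 5 of 12 fits without 1 library. LSS lost it with upper-quartile scaling, no filter, a minimum of 10 counts or the replicate number as a block, and kept it in 2 of 12. INSIG1 differed by 1.02 (SE 0.19, edgeR adjusted p = 0.0016), short of the threshold, and passed it in 7 of 10 alternatives other than leaving out 1 library, DESeq2 and GC offsets among them. HMGCS1 differed by -1.40 (SE 0.30, edgeR adjusted p = 0.0044) and SCD by -1.14 (SE 0.30, edgeR adjusted p = 0.014). SREBF2 differed by -0.46 (SE 0.11), SREBF1 by 0.51 (SE 0.24), SQLE by -0.44 (SE 0.25) and FASN by -0.21 (SE 0.13), with edgeR adjusted p = 0.0075, 0.16, 0.26 and 0.31. Outside the members, ABCA1 differed by -1.18 (SE 0.17) as 1 of 10 transport genes, and SCD5 and LPIN1 by -1.36 (SE 0.20) and -0.89 (SE 0.12) as 2 of 17 glycerolipid genes. SCD5 kept the call in 10 of 12 fits without 1 library. No isoprenoid branch, SREBP processing or oxidation gene was called. FN1 differed by -2.61 (SE 0.30).

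GC content of the exons moved with these changes. Among the 31 members it runs from 37.3% in INSIG2 to 65.3% in FASN. The Spearman correlation of log2 fold change with GC content over the 31 members was 0.66 for 6CD1m relative to 6CD2m, -0.80 for Tubastatin A relative to PCI-34051 in WT cells, -0.15 for 6CD2m and 0.74 for 6CD1m relative to WT on Tubastatin A, -0.64 for 8CDm relative to WT on PCI-34051, and 0.40 for the difference of changes. Over 13946 protein-coding genes the values were 0.34, -0.50, -0.10, 0.39, -0.46 and 0.35. These are descriptions across genes that share the same libraries. With GC offsets the members called numbered 5, 3, 14, 2, 3 and 6 in the same order. All genes called then numbered 3236, 229, 3079, 282, 2201 and 1465 of 19381. Without the offsets they numbered 2578, 82, 2310, 155, 2140 and 1008 of 19535. The part of GC content in these results was not tested beyond the offsets.

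**Figure D4:**
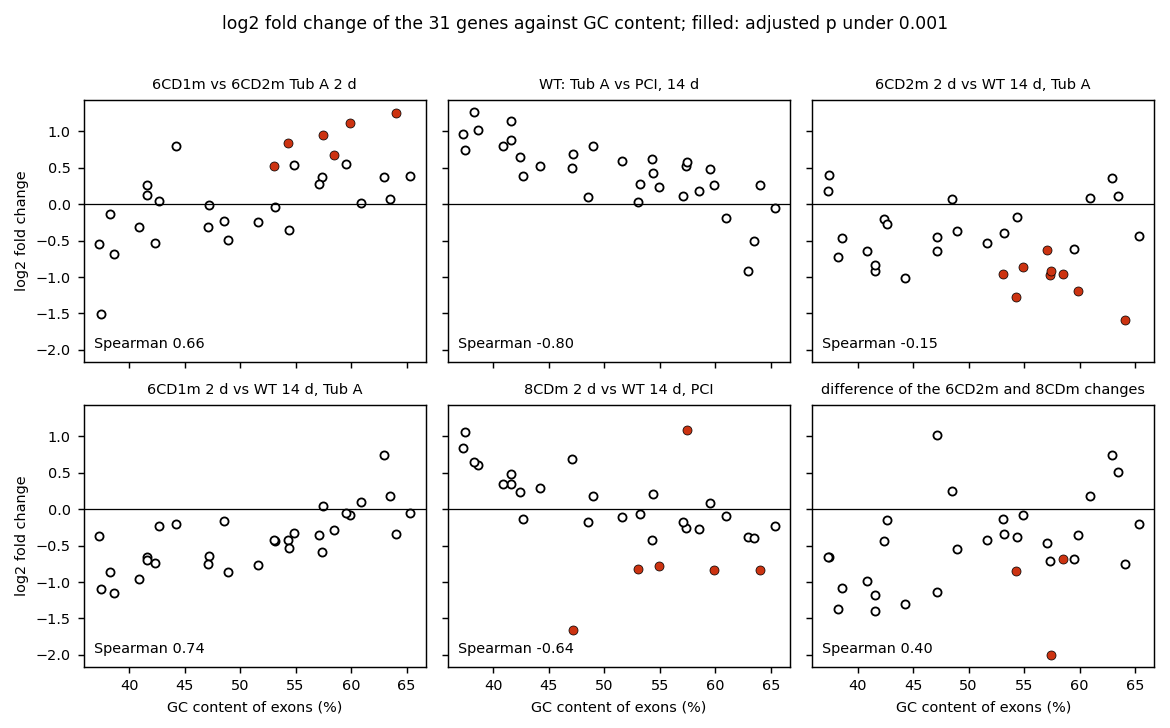
log2 fold change (vertical axes) against the GC content of exons in percent (horizontal axes) for the 31 members in each comparison, with filled points at an adjusted p under 0.001 and the Spearman correlation printed in each panel. The points rise with GC content in 6CD1m relative to 6CD2m and to WT cells, and descend in WT cells on Tubastatin A relative to PCI-34051.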

How the data were processed

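RNA was depleted of rRNA and sequenced as paired reads. The values the authors deposited are RSEM's expected counts per gene, not normalized, for 60675 genes and 15 libraries. The submitters' processing notes name Trimmomatic 0.39, Bowtie2 2.4.5, RSEM 1.3.3, DESeq2 1.38.2 and GRCh38. The gene annotation and the use of strand are not given in the sources used here. Values above 0 were fractional in 21.8% of cases and were rounded to whole counts. Library totals were 10932437 to 19983699, which limits precision at low counts.

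Groups and replicate numbers came from the sample labels. The replicates are described as biological, and the p-values measure the spread between these samples. The members and all gene lists were chosen with earlier results of these data known. Genes were filtered with edgeR's default filter, which left 19535, and TMM gave the scaling. One mean was fitted per group over the 15 libraries and tested with edgeR 4.0.16 (quasi-likelihood, R 4.3.3) and Benjamini-Hochberg adjustment over all genes tested. The threshold of 0.001 is the study's. Of the 6 comparisons several share a group, so their calls are not independent: both mutant KDAC6 lines share their WT group, which also enters the comparison of inhibitors, 6CD2m enters the comparisons with 6CD1m and with WT, and WT on PCI-34051 those with 8CDm and with Tubastatin A. CPM is relative to the TMM-scaled library size. Positions, exon length and GC content came from GENCODE 29 on GRCh38 (57055 genes matched). Named with library values were the members past the threshold with the 5 largest changes in a comparison, and HMGCS1, SQLE, INSIG1, SREBF1, SREBF2, FASN and SCD in every comparison. In the lists, genes past the threshold with the 2 largest changes were named. C12orf49 in the file is SPRING1 by its identifier.

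The alternatives comprised DESeq2 1.42.0, upper-quartile scaling, TMM leaving out small structural and mitochondrial RNA genes, no filter, at least 10 counts in every library, a threshold of 0.05, fits restricted to the groups compared, replicate number as a block, offsets from a smooth curve of each library against GC content, and leaving out each library. Leaving out 3 first replicates together, and the alternatives for the count of highest means, were chosen after seeing the data. Same-numbered libraries of the WT groups deviated together (correlations 0.505, 0.235 and 0.169 for replicates 1, 2 and 3). Those of 6CD1m and 6CD2m gave 0.189, 0.028 and 0.057, and those of each mutant line with its WT group were negative for every number. The fit was tested on simulated data of known change, for 6CD2m relative to WT only and with the same spread for all genes. At an adjusted p under 0.001 it recovered 57 of 100 genes with a log2 change of size 1. Of genes with a change of size 1.5 it recovered 91 of 100, so changes of these sizes can be missed.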

Additional observations from a re-analysis of the deposited data

Results flagged for a closer look

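FADS2, FDPS and LSS differed between 6CD2m cells relative to WT cells on Tubastatin A and 8CDm cells relative to WT cells on PCI-34051, by an interaction term in edgeR's quasi-likelihood test at an adjusted p under 0.001. The difference was -2.00 on the log2 scale for FADS2, -0.85 for FDPS and -0.68 for LSS. FADS2 moved in opposite directions in the comparisons, at -0.91 and 1.09, while FDPS and LSS fell in the first and had values of -0.42 and -0.28, not past the threshold, in the second. The groups hold 3 libraries each, too few for a test of single outlying libraries.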

How the results depend on the processing

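The counts of members called at an adjusted p under 0.001 were 6 for 6CD1m relative to 6CD2m, 0 for Tubastatin A relative to PCI-34051 in WT cells, 9 for 6CD2m and 0 for 6CD1m relative to WT on Tubastatin A, 6 for 8CDm relative to WT on PCI-34051 and 3 for the difference of changes. In that order, a threshold of 0.05 gave 17, 13, 19, 16, 12 and 14. GC offsets moved the counts of the last 5 to 3, 14, 2, 3 and 6, beside 229, 3079, 282, 2201 and 1465 of 19381 genes called. DESeq2 gave 8 in WT cells, 5 for 6CD1m relative to WT and 6 for the difference, beside 705, 616 and 1959 of 19535 genes called. No filter gave 4, 3 and 6 for these, beside 320, 428 and 1352 of 35642 genes. Fits restricted to the groups compared gave 1 for 6CD1m relative to 6CD2m, beside 1088 of 17925 genes called. They gave 3 for 8CDm relative to WT, beside 829 of 17683. Without the 3 first replicates that stood apart, chosen after seeing the data, the counts were 14 in WT cells, 15, 1 and 15 for 6CD2m, 6CD1m and 8CDm relative to WT, and 13 for the difference. All genes called in these fits numbered 2050, 4494, 267, 6128 and 2971 of 19878. The replicate block gave 5, 0, 9, 0, 4 and 2, within 1.5 times of each count, and same-numbered libraries correlated most between the WT groups. GC offsets with the replicate block gave 3 for 6CD1m relative to 6CD2m, 1 in WT cells, 3 for 8CDm relative to WT and 5 for the difference. All genes called in these fits numbered 2504, 106, 1677 and 1058 of 19381. Leaving out 1 library gave 5 to 6, 0 to 1, 8 to 9, 0 to 0, 3 to 7 and 1 to 5. All genes called then numbered 1423 to 2318, 25 to 147, 1441 to 1635, 64 to 107, 1119 to 2593 and 676 to 1229. Of 1661 values of single genes under an alternative, 136 lost the call, 61 gained it and 1464 kept their side of the threshold. These values cover list and marker genes as well as members. They include the threshold of 0.05, a second reading of the same fit under which a called gene cannot lose the call. None turned sign while called in either fit. Turned signs of genes called in neither fit were counted as kept. INSIG1 in 6CD1m relative to 6CD2m, for example, ran from -0.17 to 0.11. The causes of these movements were not tested. The lowest member count, 37, sets the weakest precision.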
